A study of Homo sapiens with 6 samples.

Results

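TXNIP, the 4 genes ARRDC1 to ARRDC4 and the transcription factor genes MLX, MLXIP and MLXIPL were examined in OE19 cells, an oesophageal adenocarcinoma line. They are 8 of the 13345 genes in the messenger RNA table and were picked by name. They were chosen by measured values of these same samples, with the high TXNIP value of 1 inhibitor sample already known, so their values in this contrast are a description. All 8 passed the filter on low values (a mean of 10 or more) and entered the fit across 12723 genes. The 3 miR-451a inhibitor samples were transfected with a miRCURY LNA Power inhibitor of miR-451a, a locked nucleic acid that blocks the microRNA. The 3 negative control samples received the inhibitor Negative Control A, which has the same chemistry. The samples were numbered by 3 independent experiments, each with 1 sample of either group, and all came from 1 cell line. Whether the sequenced cells had been irradiated is not given in the sources used here, and the level of miR-451a was not analysed here.

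TXNIP and the ARRDC proteins are alpha-arrestins, adaptor proteins that bind NEDD4-family ubiquitin ligases and bring membrane proteins to them for uptake from the cell surface. TXNIP also binds thioredoxin and lowers glucose entry through the transporters GLUT1 and GLUT4, while ARRDC4 is its closest relative in that role. When glucose phosphates build up, MondoA (encoded by MLXIP) or ChREBP (encoded by MLXIPL) pairs with MLX on carbohydrate response elements and switches on TXNIP and ARRDC4, so TXNIP messenger RNA is widely read as a glucose sensor.

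The promoters of TXNIP and ARRDC4 are shown because both genes are known targets of these factors. A carbohydrate response element holds a pair of E-box-like boxes, written here as CACGNG and CACGNG with 5 bases between them. RefSeq sequence of GRCh38 is printed 5' to 3' on the strand of each gene, with capitals marking the matched boxes in TXNIP and the match to CACGTG in ARRDC4. The TXNIP stretch is chr1:145996580-145996729 on the minus strand, positions -150 to -1 from the start, and the ARRDC4 stretch is chr15:97960453-97960602 on the plus strand, positions -250 to -101.
TXNIP: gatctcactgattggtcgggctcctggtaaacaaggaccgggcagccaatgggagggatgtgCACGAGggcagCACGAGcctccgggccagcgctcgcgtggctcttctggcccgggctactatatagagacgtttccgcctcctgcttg
ARRDC4: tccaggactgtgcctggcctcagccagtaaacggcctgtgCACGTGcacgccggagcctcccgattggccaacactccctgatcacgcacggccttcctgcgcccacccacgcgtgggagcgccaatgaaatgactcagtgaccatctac
The pair of boxes lay at -88 to -72 of TXNIP, in 1 of its 2 RefSeq promoter windows. Both strands of 35116 windows, from 250 bases before to 50 bases after a start, were searched for it. This form, with both boxes read in the same direction, was found in 20 of them (0.0570%), and TXNIP was the 1 gene of the 8 that held it. Other spellings or directions of the boxes were not searched. A gene without this match may thus still hold a response element, and the share is that of this form only. The E-box CACGTG, which is 1 spelling of CACGNG but not that of the TXNIP boxes, was in 2548 windows (7.26%). Among the 8 genes it was found in ARRDC4, at -210 to -205, and in MLX, at -50 to -45. CCAAT, the letters bound by the factor NF-Y, was found in a window of 7 of the 8 genes, all but MLXIPL, and in 34.6% of all windows. These are matches of letters within the windows, not measured binding.

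Across the whole table, inhibitor sample 3 was unlike the remaining 5. Among 11095 genes averaging 50 or more, 1373 lay over 2-fold away from the median of the rest in this sample, against 62 to 214 genes in any other sample. Its recovered whole numbers, which come after the authors' adjustment and are not reads, summed to 15362439 in a range of 14084387 to 18726440 over the 6 samples. The values are the authors' normalized signal per gene, adjusted within each sample for GC content and gene length. The group differences of the 8 genes and the medians of the pathway lists are given with and without inhibitor sample 3. What set this library apart was not tested. In these bulk samples, a change in the share of cells that express a gene and a change in RNA per cell cannot be told apart.

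TXNIP (ENSG00000265972.5, chr1:145992435-145996579 in GRCh38) had normalized values of 3088, 2756 and 2658 in negative controls 1, 2 and 3. In the inhibitor samples it had 3373, 2689 and 30070. Inhibitor samples 1 and 2 lay within or just above the control range, and inhibitor sample 3 was 8.92-fold above the highest other sample. Over the group the control mean was 2834 ± 225 and the inhibitor mean 12044 ± 15615 (SD, n = 3), so the spread of the inhibitor group was larger than its mean. The log2 difference was 1.20 ± 0.83 (SE), with an adjusted p of 0.899 in limma. Within experiments 1, 2 and 3 the log2 difference of inhibitor from control was 0.13, -0.035 and 3.50. Without inhibitor sample 3 it was 0.091 ± 0.136, with an adjusted p of 0.974 in limma.

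The TXNIP values were far from the low end of the scale in every sample. The recovered whole number was 28973 in inhibitor sample 3 and 2572 to 3763 in the other 5 samples. It follows ranks after the authors' adjustment and is not a number of reads. By value, TXNIP ranked 46 of 13345 genes in inhibitor sample 3 and between 751 and 961 in the others. Genes share values on the adjusted scale, with 15 at the highest value of inhibitor sample 3, so these places are coarse. The value of 30070 was held by no other gene there, with 29967 next below it and 43257, or 1.44 times as much, next above it. These values follow ranks after the authors' adjustment, so their spacing sets the size of the TXNIP fold and does not measure how well it is resolved.

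ARRDC3 (ENSG00000113369.8, chr5:91368631-91383317), an alpha-arrestin that guides the beta-2 adrenergic receptor and integrin beta 4 to breakdown, showed the same high sample. Its values were 203.5, 127.1 and 131.3 in the controls and 239.5, 150.8 and 1732 with the inhibitor. Inhibitor sample 3 was 7.23-fold above the highest other sample, while inhibitor sample 1 was just above the controls and inhibitor sample 2 was among them. The value of 1732 was shared by 6 genes in that sample, so the level of ARRDC3 there is not separated from theirs. The means were 154.0 ± 42.9 and 707.5 ± 888.5 (SD, n = 3), a log2 difference of 1.40 ± 0.82 with an adjusted p of 0.899 in limma. The log2 differences within experiments were 0.23, 0.24 and 3.71, so ARRDC3 was the 1 gene of the 8 that was higher with the inhibitor in all 3 experiments. Of all genes tested, 12.2% were. Without inhibitor sample 3 the log2 difference was 0.34 ± 0.28, with an adjusted p of 0.974 in limma. The gene overlaps the antisense transcript ARRDC3-AS1. The library kit marks strand, but whether the counting used it is not given in the sources used here, so reads of the pair may not be separated.

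ARRDC4 (ENSG00000140450.8, chr15:97960703-97973833), which like TXNIP lowers glucose uptake, had 528.4, 475.3 and 548.8 in the controls and 482.1, 479.7 and 1159 in the inhibitor samples. Inhibitor samples 1 and 2 lay in the lower part of the control range, and inhibitor sample 3 was 2.11-fold above the highest other sample. The means were 517.5 ± 38.0 and 707.0 ± 391.7 (SD, n = 3). The log2 difference was 0.32 ± 0.33, with an adjusted p of 0.899 in limma, and it turned to -0.10 ± 0.11 without inhibitor sample 3. Within the experiments it was -0.13, 0.013 and 1.08.

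ARRDC1 and ARRDC2 did not share the high sample. ARRDC1 (ENSG00000197070.13, chr9:137605686-137615360), which recruits ubiquitin ligases and ESCRT proteins to bud small vesicles from the plasma membrane, had 1707, 1885 and 1944 in the controls. With the inhibitor it had 1835, 1870 and 1723, all within the control range. The log2 difference was -0.027 ± 0.116, with an adjusted p of 0.961 in limma, and without inhibitor sample 3 it was 0.0074 ± 0.101. One end of ARRDC1 overlaps the antisense transcript ARRDC1-AS1, so reads of the pair may not be separated if the counting did not use strand. ARRDC2 (ENSG00000105643.9, chr19:18001124-18014102), an alpha-arrestin with a less settled role, had 690.9, 603.5 and 608.8 in the controls and 677.2, 606.2 and 698.5 with the inhibitor. Inhibitor sample 3 was 1.01 times the highest control, and both samples of experiment 1 lay near it. The log2 difference of ARRDC2 was 0.059 ± 0.126, with an adjusted p of 0.922 in limma, and without inhibitor sample 3 it was 0.017 ± 0.113.

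**Figure D1:**
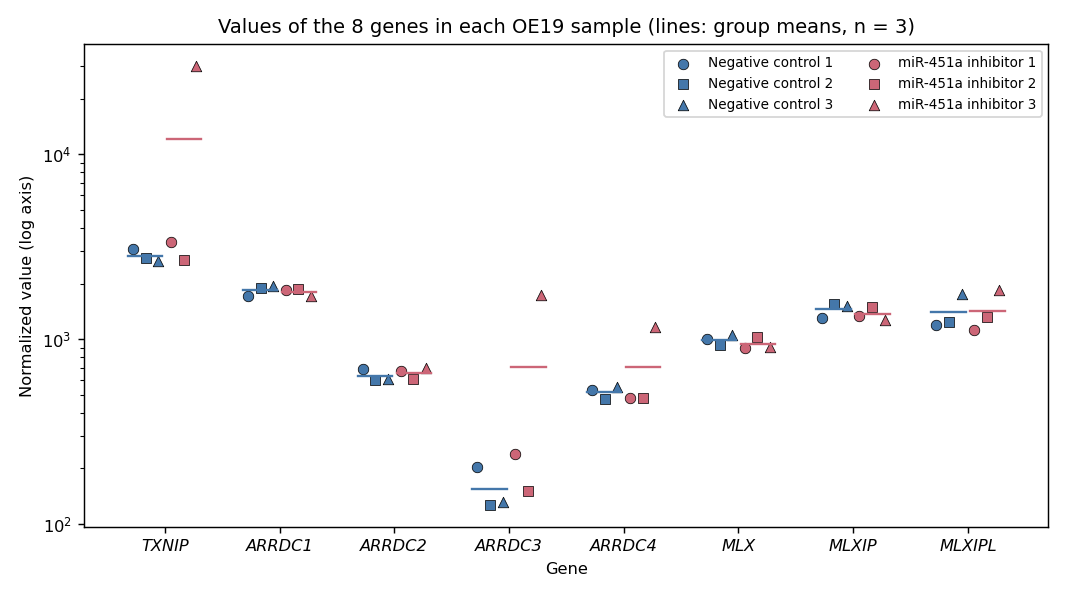
Normalized value (log axis) of each of the 8 genes in each of the 6 samples, with control samples in blue, inhibitor samples in red, marker shapes for experiments 1 to 3 and lines at the group means (n = 3). Inhibitor sample 3 lies far above the other samples for TXNIP (30070), ARRDC3 (1732) and ARRDC4 (1159), while the groups overlap for all 8 genes.

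The genes of the sensing factors differed little between the groups. MLX (ENSG00000108788.11, chr17:42567100-42573203), the shared partner, had 1003, 925 and 1055 in the controls and 890.9, 1027 and 906.1 with the inhibitor. The groups overlapped, with the log2 difference at -0.080 ± 0.121, an adjusted p of 0.902 in limma, and -0.054 ± 0.111 without inhibitor sample 3. One end of MLX overlaps PSMC3IP, which may share reads with it.

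MLXIP (ENSG00000175727.13, chr12:122078756-122147344), which encodes MondoA, had 1304, 1543 and 1519 in the controls and 1336, 1501 and 1266 with the inhibitor. It was the 1 gene of the 8 whose lowest value was in inhibitor sample 3, 0.971 times the lowest of the other 5 samples. The log2 difference was -0.089 ± 0.130, with an adjusted p of 0.900 in limma, and -0.036 ± 0.117 without that sample.

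MLXIPL (ENSG00000009950.15, chr7:73593202-73647907), which encodes ChREBP, varied between experiments. Its values were 1186, 1246 and 1766 in the controls and 1126, 1311 and 1845 with the inhibitor. Both samples of experiment 3 were the highest, and the log2 differences within experiments were -0.075, 0.072 and 0.063. The log2 difference over the groups was 0.020 ± 0.229, with an adjusted p of 0.985 in limma, and -0.18 ± 0.19 without inhibitor sample 3. Messenger RNA levels do not show the activity of MondoA or ChREBP, which is set largely by where the proteins sit in the cell and by their binding of glucose phosphates.

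In the comparison of inhibitor with control, 0 of the 8 genes and 0 of the 12723 genes tested (0.0%) passed an adjusted p of 0.05 in limma. At an unadjusted p below 0.05 in limma there were 119 genes (0.935%) and again 0 of the 8. On the recovered whole numbers, DESeq2 and edgeR also gave 0 genes after adjustment and 250 and 163 before it. Every inhibitor value lay above every control value in 2.71% of genes and below it in 2.9%, and in 0 of the 8 in either direction. A study of 3 against 3 samples has a smallest two-sided exact p of 0.1 in the Mann-Whitney test that the study names.

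The 8 genes did not move as 1 group in inhibitor sample 3. TXNIP was 10.9-fold, ARRDC3 11.4-fold and ARRDC4 2.40-fold above the median of the other 5 samples when inhibitor sample 3 was read alone. On the log2 scale, that distance ranked ARRDC3 44, TXNIP 46 and ARRDC4 721 among the 12723 genes. Among the 11095 genes with a mean of at least 50, they ranked 8, 9 and 375. These 3 genes of the 8 exceeded the highest other sample by over 2-fold in inhibitor sample 3, as did 4.49% of all genes, and 0 of the 8 fell over 2-fold below the lowest, against 3.63%. Counting any distance, 5 of the 8 (TXNIP, ARRDC2, ARRDC3, ARRDC4 and MLXIPL) were above all other samples there, against 34.7% of genes, and 1 (MLXIP) was below them, against 35.7%. The 8 were chosen with this sample known, so nothing is read from these counts.

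**Figure D2:**
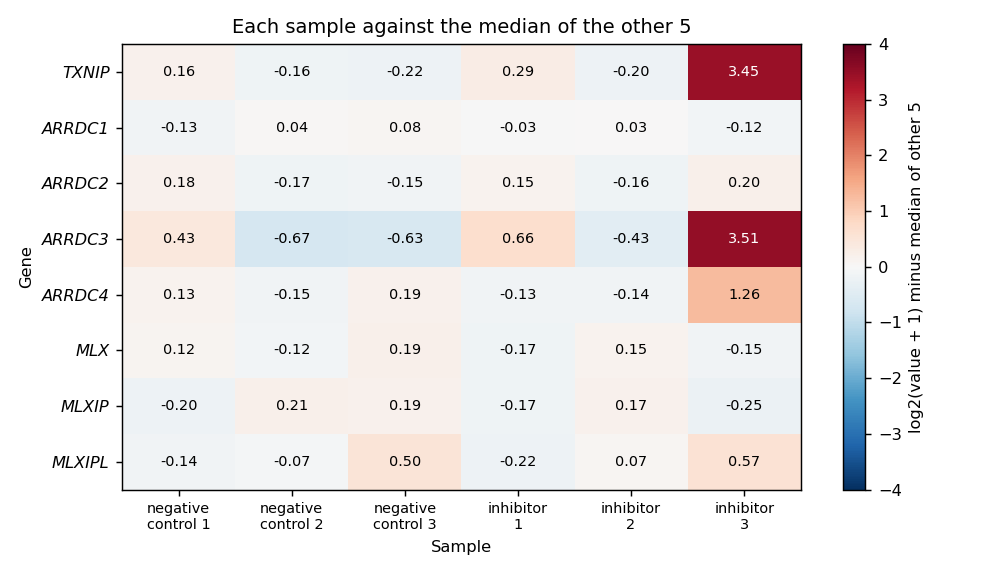
Log2 distance of each sample from the median of the other 5 samples, on log2(value + 1), for each of the 8 genes (rows) and each sample (columns), with red above and blue below. TXNIP (3.45), ARRDC3 (3.51) and ARRDC4 (1.26) stand out in inhibitor sample 3, and ARRDC3 is also raised in both samples of experiment 1 (0.43 and 0.66).

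Outside inhibitor sample 3 the genes differed in how steady they were. Over the other 5 samples the coefficient of variation was 4.77% for ARRDC1, 6.66% for ARRDC4, 6.74% for ARRDC2, 7.10% for MLX, 7.77% for MLXIP and 10.6% for TXNIP. MLXIPL (19.2%) and ARRDC3 (28.8%) varied most. For ARRDC3 the highest of these samples was 1.88 times the lowest, and both high ones came from experiment 1. Both samples of experiment 1 lay above, or both below, negative controls 2 and 3 and inhibitor sample 2 in 6 of the 8 genes, all but MLX and ARRDC4. That was so in 42.5% of all genes, and this count was added after the values were seen.

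The order of the 8 levels, on the authors' scale adjusted for length and with no further division by length, was alike in the 5 samples that resembled each other. TXNIP was the highest and ARRDC3 the lowest of the 8 in each of these 5. ARRDC1 lay above MLX, and MLX above ARRDC2 and ARRDC4, with no overlap between those neighbours. MLXIP and MLXIPL overlapped with each other, and the highest MLXIPL value (1766) passed the lowest ARRDC1 value (1707), so these are not separated by their spread. In inhibitor sample 3, TXNIP remained first and ARRDC3 moved from eighth to the third place, behind MLXIPL.

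The genes whose pattern over the 6 samples was most like TXNIP were found by the Euclidean distance between log2(value + 1) after each gene's median was subtracted, among genes with a mean of at least 50. ARRDC3 was the nearest of all, at a distance of 0.56. NDRG1 (0.58), a gene induced by stress and low oxygen, ETV1 (0.68), an ETS transcription factor, CALM2 (0.73), 1 of the calmodulin genes, and KIAA1683 (0.81) came next. NDRG1 had 2979 in inhibitor sample 3 and 373.8 to 464.6 elsewhere. For ARRDC3 the nearest were TXNIP (0.56), CALM2 (0.66), DHRS2 (0.76), NDRG1 (0.79) and UPP1 (0.94), which encodes uridine phosphorylase. The CALM2 value in that sample, 109616, was the highest in the sample and was shared by 15 genes, so its level there is not separated from that of those genes. ARRDC4 took place 300 in likeness to TXNIP, at a distance of 2.20. These 6 samples share 1 cell line, and the likeness rests mostly on 1 of them.

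**Figure D3:**
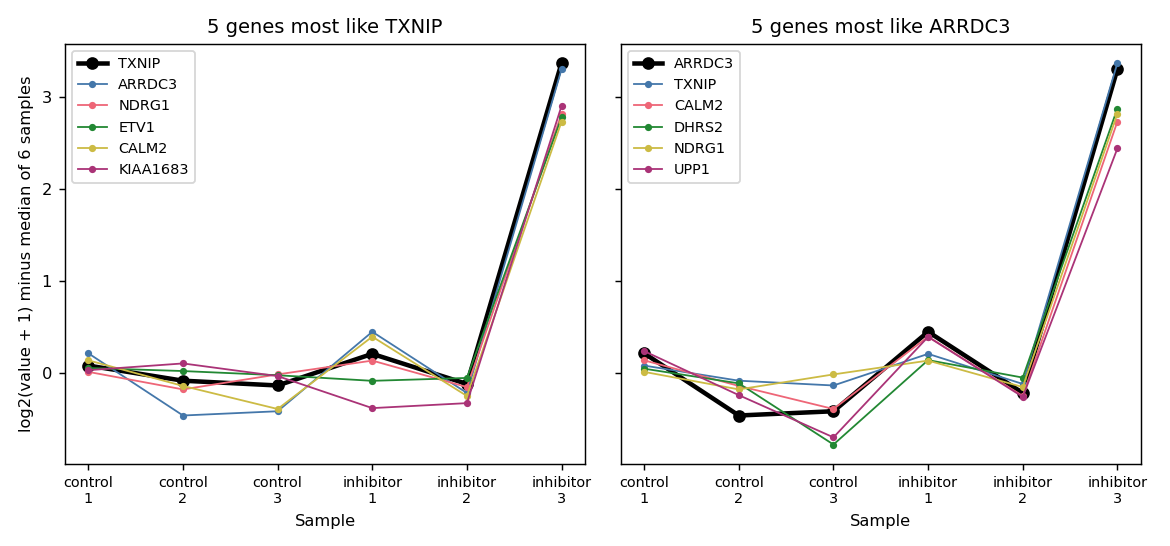
Log2(value + 1) minus the median of the 6 samples, for TXNIP and the 5 genes most like it (left) and for ARRDC3 and the 5 most like it (right), with the samples along the horizontal axis. Every line shown lies between -1 and 1 in the first 5 samples and peaks in inhibitor sample 3, where NDRG1 is 7.10-fold above the median of the other 5.

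Other genes of the pathway were taken from lists chosen with earlier results of these data known, and no gene of any list passed an adjusted p of 0.05 in limma. Over all genes tested, 6280 were higher and 6443 lower with the inhibitor, with a median log2 difference of -0.0035, and the median log2 distance of inhibitor sample 3 from the other 5 was -0.0044. Of 14 recorded MondoA and ChREBP target genes apart from the alpha-arrestins, 11 were tested. Of these, 2 were higher and 9 lower, with a median log2 difference of -0.40, which was -0.18 without inhibitor sample 3. That sample was below all others in 7 of the 11 and above them in 1, against 35.7% and 34.7% of all genes. Its median distance was -0.76, opposite in sign to that of TXNIP and ARRDC4. FASN, which encodes fatty acid synthase, had 10230, 14214 and 23502 in the controls and 6588, 13911 and 2609 with the inhibitor. Inhibitor sample 3 was lowest for FASN, and negative control 3 of the same experiment was the highest.

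The genes found by the search for the pair of boxes were read next. They were picked by a match of letters, and whether MondoA or ChREBP acts on them was not tested. Of the 20 genes with the pair in a promoter window, 14 were tested, and inhibitor sample 3 was above the other 5 in 7 of them, against 34.7% of all genes. Their median log2 distance was 0.28, or 0.27 without TXNIP, and the other 13 genes lay between 0.783-fold and 1.88-fold of the median of the other samples. GFPT1, which encodes the first enzyme of the hexosamine pathway, was at 1.22-fold.

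FOXO target genes were listed because insulin signalling through AKT restrains FOXO factors. All 10 were tested, with 9 higher and 1 lower and a median log2 difference of 0.32, which was -0.19 without inhibitor sample 3. In that sample 9 of the 10 were above every other sample and 4 of them by over 2-fold, at a median log2 distance of 1.61. Over all genes these shares were 34.7% and 4.49%, and the list was chosen with this sample known. CCNG2, an atypical cyclin linked to growth arrest, had 715.1 there and 103.2 to 151.9 elsewhere. KLHL24, an adaptor of a ubiquitin ligase, had 880.1 against 144.2 to 231.5. FBXO32, a ubiquitin ligase subunit of muscle wasting, had 532.4 against 75.8 to 132.1. These 3 were named for their large distance in inhibitor sample 3, so nothing is read from their peak in the same sample as TXNIP.

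Glucocorticoid target genes were listed because that hormone can raise TXNIP. Of the 7 tested, 6 were higher and 1 lower, with a median log2 difference of 0.14, which was 0.044 without inhibitor sample 3. That sample was above all others in 3 of the 7 and below them in 1, against 34.7% and 35.7% of all genes. PER1, a clock gene, had 934.1 in that sample and 239.3 to 292.5 elsewhere. TSC22D3, which encodes the leucine zipper protein GILZ, had 699.5 against 162.1 to 258.4. KLF9, a transcription factor gene, had 101.7 against 70.3 to 200.2. The median log2 distance of the list there was 0.084, so PER1 and TSC22D3 were not typical of it.

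**Figure D4:**
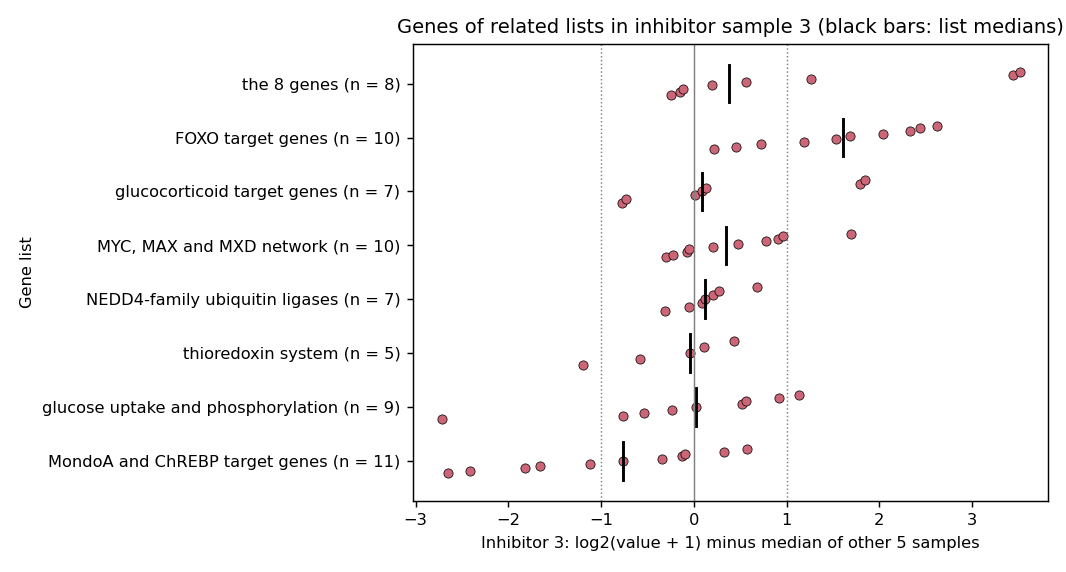
Log2 distance of inhibitor sample 3 from the median of the other 5 samples on the horizontal axis, with 1 point per gene, 1 row per list and black bars at list medians. The FOXO target genes have a median of 1.61, the MondoA and ChREBP target genes a median of -0.76, and the dotted lines mark 2-fold.

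The binding partners of these proteins came next. Of 7 NEDD4-family ubiquitin ligases tested, 6 were higher and 1 lower, with a median log2 difference of 0.084, which was 0.16 without inhibitor sample 3. WWP2, 1 of these ligases, had 778.4 in inhibitor sample 3 and 377.3 to 559.5 elsewhere. NEDD4L had 427.6 there against 405.2 to 690.7, and NEDD4 had 333.2 against 206.5 to 290.4. Of 5 thioredoxin system genes, 3 were higher and 2 lower, with a median log2 difference of 0.030, which was 0.069 without inhibitor sample 3. TXNRD3, a thioredoxin reductase, had 71.6 in inhibitor sample 3 against 128.0 to 183.2, and TXN2, the mitochondrial thioredoxin, had 2117 against 1510 to 1644. TXNRD2, the mitochondrial reductase, had 484.7 against 683.5 to 844.5. These named reductases, TXNRD3 and TXNRD2, were thus lowest in inhibitor sample 3, and TXN2 was highest there. The reductase TXNRD1 (4954 against 4288 to 6196) and the thioredoxin TXN (7787 against 7108 to 8168) lay within the range of the other samples.

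Of 9 genes of glucose uptake and phosphorylation tested, 5 were higher and 4 lower, with a median log2 difference of 0.032, which was -0.12 without inhibitor sample 3. The transporters that TXNIP is known to act on differed, with SLC2A1 (GLUT1) at 3561 in that sample against 2155 to 2622, and SLC2A4 (GLUT4) at 40.5 within a range of 20.6 to 85.0. SLC2A6, a transporter of lysosomes, had 51.9 in inhibitor sample 3 and 167.2 to 1030 elsewhere. SLC2A3, which encodes the transporter GLUT3, had 259.3, 104.7 and 96.1 in the controls and 283.9, 83.0 and 230.4 with the inhibitor, so inhibitor sample 3 lay nearer to both samples of experiment 1 than to the rest. SLC2A10 had 1137 in that sample and 490.4 to 749.4 elsewhere. The MYC, MAX and MXD genes, whose proteins form the network that MLX belongs to, had 7 of 10 higher and 3 lower, with a median log2 difference of 0.091, which was -0.029 without inhibitor sample 3. In inhibitor sample 3, MYCL had 161.9 against 35.4 to 57.8, MXD3 504.4 against 234.7 to 324.2 and MXD1 619.6 against 307.6 to 402.9. These 3 were named for their large distance there. Of the 10 genes, 5 were above all other samples there and 2 were below them, against 34.7% and 35.7% of all genes. The beta-arrestin gene ARRB1, a distant relative of the alpha-arrestins, had 1181, 1265 and 1571 in the controls and 857.9, 1323 and 768.0 with the inhibitor, and its groups overlapped. ARRB2 had 633.4, 560.8 and 437.2 in the controls and 595.7, 540.4 and 674.6 with the inhibitor, which overlapped too.

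Cell type markers were checked beside these values. All 8 columnar epithelium markers were present, with KRT8 between 48381 and 59299. In inhibitor sample 3 the markers did not move together, with VIL1 at 1398 against 3454 to 4521, EPCAM at 9271 against 11580 to 15001 and CLDN4 at 15712 against 4688 to 5978. Squamous markers (6 of 8 in the table) summed to 359.1 in inhibitor sample 3, 503.8 and 511.1 in the other inhibitor samples and 557.1 to 576.0 in the controls. Mesenchymal markers (3 of 8) summed to 263.3 to 311.7 with the inhibitor and 278.2 to 344.2 in the controls, although VIM had 32.2 in inhibitor sample 3 and 4.13 to 11.5 elsewhere. Of the blood markers 1 of 8 was in the table, CD79A, with 73.7 in inhibitor sample 3, 9.11 and 17.6 in the other inhibitor samples and 3.20 to 6.20 in the controls. Mitochondrially encoded genes (13 of 13) summed to 382144 in inhibitor sample 3 and 310359 to 354260 elsewhere. Within that sum MT-ND4 had 109616 in inhibitor sample 3, the highest value there, which 15 genes shared. The sum thus follows ranks too and is not a measured mitochondrial share. The part of these markers and mitochondrial genes in the TXNIP, ARRDC3 and ARRDC4 values was not tested.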

How the data were processed

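Messenger RNA of OE19 cells, 3 negative control and 3 miR-451a inhibitor samples, was analysed from 1 table. Groups came from the sample titles and treatments. The study's methods and the submitters' notes name cutadapt 1.8 for trimming, FastQC 0.11.8 for quality and STAR 2.7.0f for alignment to GRCh38. The authors then used EDASeq for GC content and length within a sample and DESeq2 between samples. The deposited values are thus a normalized signal, not raw counts. The tool that counted reads, its use of strand and the release of the annotation are not given in the sources.

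Each column, divided by its smallest value above 0, gave whole numbers for 100% of values (within 1e-06). These are whole numbers after the authors' adjustment, not reads. Ties such as the 15 genes that share the highest value show that values follow ranks, so the spacing of ranks sets the size of a fold.

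The main test was limma 3.58.1 (eBayes with trend, two-sided, R 4.3.3) on log2(value + 1) for the 12723 genes with a mean of at least 10, with Benjamini-Hochberg adjustment over all of them and a threshold of 0.05. Log2 differences on this scale understate the change of low genes. The p-values measure the spread between these samples. DESeq2 1.42.0 and edgeR 4.0.16 on the recovered whole numbers were alternatives, beside TMM scaling, pseudocounts, filters, sample weights, no trend, normal scores of ranks, each sample left out and the experiment number as a replicate block. The method was first tested on simulated data. These held no sample unlike the rest, no experiment effect and no values that follow ranks, so that check does not cover these features.

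Samples were read as paired by experiment number, which the headers and the design text give, for the differences within experiments. The main limma test used the group only and was not paired. The experiment number entered the fit only in the replicate block. After group means were subtracted, the 2 samples of an experiment correlated at 0.21, 0.15 and -0.0043 across genes. Samples of different experiments correlated at -0.38 (negative control 1 with inhibitor sample 2) to 0.23 (negative control 3 with inhibitor sample 2). The matched values thus do not stand apart, and the pairing is not shown by them.

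The 8 genes, the lists and the tests were chosen with earlier results of these data known. Named genes were the 8, in each list up to 3 with a mean of at least 50 and the largest distance of inhibitor sample 3 from the other 5, and the 5 genes most like TXNIP and ARRDC3. GFPT1, SLC2A1, SLC2A4, TXN, TXNRD1, KRT8, VIM, CD79A and the overlapping neighbours were named outside this rule after their values were seen. Some genes that the rule names, among them squamous, mesenchymal and mitochondrial ones given as sums, are not reported here. Promoters and GRCh38 coordinates came from RefSeq by symbol. Protein features were not analysed here.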

Additional observations from a re-analysis of the deposited data

How the results depend on the processing

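No gene passed the adjusted threshold under any of the settings run, but DESeq2 gave no adjusted p for TXNIP, which was thus not tested there. The replicate block gave TXNIP 1.20 with an adjusted p of 0.848 in limma and changed no call. The number of genes at an unadjusted p below 0.05, 119 as reported, was 315 with sample weights, 250 with DESeq2, 181 with no trend, 76 at a mean of at least 50 and from 43 (without negative control 3) to 1360 (without inhibitor sample 2) with a sample left out; it was 63 without negative control 2 and 180 without inhibitor sample 3. With each sample left out in turn, the log2 difference ran from 0.091 to 1.83 for TXNIP and from 0.34 to 2.09 for ARRDC3, lowest without inhibitor sample 3. It ran from -0.10 to 0.53 for ARRDC4, turning without inhibitor sample 3, from -0.082 to 0.011 for ARRDC1, turning without that sample or negative control 3, and from -0.18 to 0.20 for MLXIPL. For MLXIPL it turned without that sample, negative control 1 or negative control 2, and was -0.056 with sample weights. Sample weights gave 0.33 for TXNIP, 0.67 for ARRDC3 and 0.042 for ARRDC4, while edgeR gave 2.09 and 2.19 for the first pair and DESeq2 gave 2.09 and 2.21. Against the highest of the other 5 samples in place of their median, the log2 distance of inhibitor sample 3 was 3.16 for TXNIP, 2.85 for ARRDC3 and 1.08 for ARRDC4, a smaller distance by construction, and 0.016 for ARRDC2 and 0.063 for MLXIPL. With the whole numbers scaled only by their sum it was -0.21 for ARRDC1. The cause of the other changes was not tested.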
